A study of Mus musculus with 12 samples.

Results

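The copy number of 10 receptor tyrosine kinase genes was read from WES of a pair of primary murine PDAC (pancreatic ductal adenocarcinoma) lines, 15376T and 14837T. The genes are Egfr, Erbb2, Erbb3, Met, Fgfr1, Fgfr2, Igf1r, Axl, Pdgfra and Kit. They were set by name and not by a cutoff on their values, but with earlier results of these data known. They are 10 of the 20947 autosomal genes that 1 segment in each line names. Both lines came from C57BL/6 mice that carried a doxycycline-inducible oncogenic transgene, ROSA_rtTA, p48-Cre and Trp53 L/+, in which Cre acts in the pancreas. The labels give both lines the genotype WT, which here means without the Lin28b knockout made in 15376T. The lines were cultured with doxycycline according to the study's methods. Each was sequenced as 1 library (WES-15376T and WES-14837T, called by the line below). No value below therefore has a replicate, and no test between the lines was possible. The RNA-seq samples and the WES of wild-type tail were not analysed here, and copy number says nothing about how much of a receptor was made.

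WES captures and sequences mainly exons, and the coverage of a region relative to a reference gives its copy number. Each line's table cuts the genome into segments, runs of neighboring bins with a common coverage. Each segment has a log2 ratio, which sets its coverage against an unnamed reference, a whole-number copy call and a mean read depth. It also has a B-allele fraction (BAF), the share of reads at variant sites that carry the variant allele. A segment was called gained above a log2 of 0.2 and lost at or below -0.25. The mean depth of autosomal segments was 43.4 in 15376T and 47.5 in 14837T. Among autosomal 2-copy segments, the SD of log2 was 0.090 in 15376T (103 segments) and 0.095 in 14837T (96 segments). It served as the spread, since the tables hold none for a single segment. These segments lie between the thresholds by their call, so the SD is bounded by them and is not the error of a segment. The spread of a difference between the lines was not estimated.

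Receptor tyrosine kinases sit in the cell membrane, bind growth factors outside the cell and phosphorylate tyrosines inside it once receptors pair. The phosphorylated sites recruit adaptors that switch on Ras and the MAPK cascade, PI3K and Akt, and STAT proteins. In pancreatic cancer, Egfr is known to be needed for early lesions, and Met, Igf1r and Axl are known for roles in growth, invasion and drug resistance.

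None of the 10 receptor genes was called gained in either line. In 15376T, 4 were called lost (Fgfr1, Fgfr2, Igf1r and Axl), and in 14837T 3 were called lost (Fgfr2, Igf1r and Axl). Of all autosomal genes, 30.1% were lost and 9.09% gained in 15376T, and 28.8% were lost and 21.4% gained in 14837T. The shares of receptors lost, 40% and 30%, are near this background, and 10 genes allow only coarse shares. The 3 genes lost in both lines compare with 22.4% of all genes lost in both, and the 0 gained in both with 6.87%. The call differed between the lines for Fgfr1 alone, where 29.3% of all genes had a different call. The median log2 of the receptors was -0.018 in 15376T and -0.079 in 14837T, beside -0.023 and -0.045 over all autosomal genes. The genes are not independent values, since the 10 lay in 6 segments in 15376T and in 9 segments in 14837T. Every receptor gene lay whole inside its segment in each line, so no segment border cut a gene. The bins do not cover a gene throughout, and those listed for Fgfr1 run from 25532293 to 25573952.

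**Figure D1:**
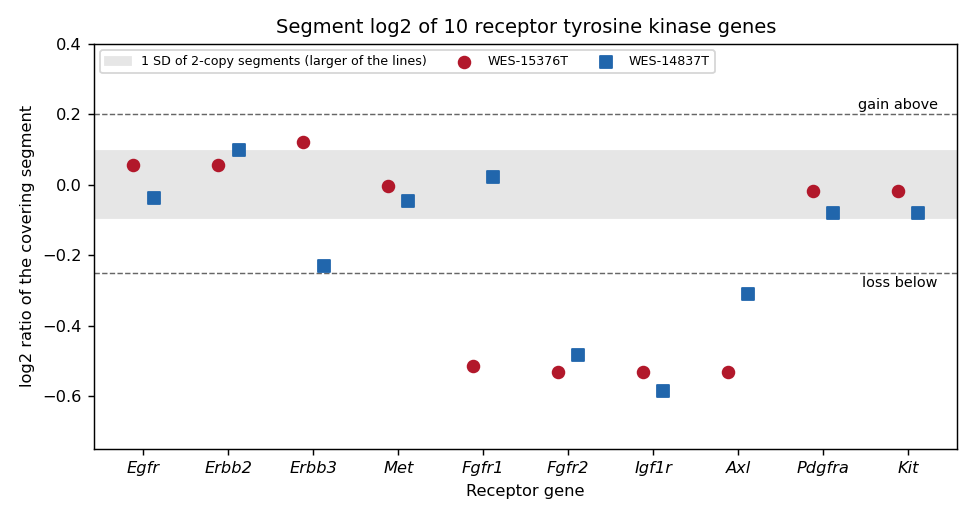
Log2 ratio of the segment that covers each receptor gene (vertical axis) for the 10 genes (horizontal axis) in 15376T (circles) and 14837T (squares), 1 library each. The grey band is 1 SD of segments called at 2 copies and the dashed lines are the call thresholds; Fgfr2, Igf1r and Axl lie under the loss threshold in both lines, and Fgfr1 in 15376T alone.

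Among the Erbb receptors, which bind the EGF and neuregulin ligands, all 3 genes of the set were called at 2 copies in each line. Egfr, the receptor of EGF and TGF-alpha, is found at 16752203 to 16913907 of chromosome 11 (GRCm38). Its segment had a log2 of 0.056 in 15376T and -0.036 in 14837T, both within 1 SD of 0. Erbb2, which binds no ligand known to activate it and pairs with the other Erbb receptors, lies on the same chromosome from 98412484 to 98437716. In 15376T it shared the segment of Egfr, which is 96.5 Mb long with 11932 bins, so the 2 genes had one value. In 14837T chromosome 11 was cut into more segments, and Erbb2 had a log2 of 0.10 over 1492 bins in a segment of 6.02 Mb. The segment ended at 99620437 in both lines, 1.18 Mb beyond Erbb2. A log2 of 0.10 was the highest value of any of the 10 genes in 14837T, and 74.8% of autosomal genes lay below it. The neighbors of Erbb2 in the segment, Pgap3 on one side and Mien1 and Grb7 on the other, carried the same value by construction. Each gene takes the log2 of its segment, and no narrow segment was cut around Erbb2. Its own depth is not listed in either line, so an amplicon smaller than a segment was not tested.

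The segment of Egfr and Erbb2 had a BAF of 1 in 15376T, where 8 of 158 autosomal segments with a BAF lay above 0.5. In 14837T the BAF was 0.027 for Egfr and 0.056 for Erbb2, where the median of autosomal segments was 0.062. The allelic copy numbers in the tables put all copies of both genes on 1 allele in each line. The number of variants behind a BAF is not in the tables, and in an inbred strain few sites differ from the reference.

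Erbb3, a receptor of neuregulins with very weak kinase activity, lies on chromosome 10 from 128567523 to 128589635. Its segment had a log2 of 0.12 in 15376T (1114 bins, depth 52.7) and of -0.23 in 14837T (607 bins, depth 46.7). The second value was -2.42 times the SD and just above the loss threshold of -0.25, so the gene was called at 2 copies in each line. The difference of 0.35 was larger than the SD of either line, and 82.3% of autosomal genes differed by less. In 14837T Erbb3 lay 0.53 Mb from the border with the neighboring segment. That neighbor was called at 1 copy, with a log2 of -0.38 over 1509 bins. In 15376T the segment on that side was at -0.035. Of the length of chromosome 10, 41.3% was lost in 14837T and 1.38% in 15376T. The depth of the lines gave a smaller difference. Relative to segments called at 2 copies, the depth over the segment of Erbb3 was 0.19 on the log2 scale in 15376T and -0.026 in 14837T. With a threshold of 0.2 in either direction, chosen after this value was seen, Erbb3 would count as lost in 14837T, and 4 of the 10 genes would then be lost there.

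Met, the receptor of hepatocyte growth factor, lies on chromosome 6 from 17463349 to 17573980, beside Cav1 and Capza2. Its log2 was -0.0021 in 15376T, the value nearest to 0 of all 10 genes, and -0.045 in 14837T. The segment was 22.5 Mb long with 889 bins in 15376T and 127 Mb long with 9981 bins in 14837T. In 14837T the long segment also held Braf, Ret and Tgfa. Its BAF was 0.40, and Met was the only gene of the 10 with 1 copy of each allele in the tables. In 15376T the BAF was 0.045. The depth of the segment was 40.4 in 15376T, which is -0.19 on the log2 scale against the depth of 2-copy segments, while that in 14837T was -0.019. A gain of Met was not seen on either scale.

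Pdgfra and Kit are related receptors of class III, for platelet-derived growth factor and stem cell factor, and are neighbors on chromosome 5. Pdgfra lies from 75151322 to 75198206 and Kit from 75574987 to 75656722, followed by Kdr, the main VEGF receptor. The pair shared a segment in both lines, at -0.018 in 15376T (1139 bins) and -0.079 in 14837T (1023 bins), so the 2 genes count as a single observation. Both values lay within 1 SD of 0. The segment began at nearly the same place in the lines, 2.61 kb apart. On that side both lines had a 1-copy segment, at -0.26 in 15376T (202 bins) and -0.36 in 14837T (209 bins). The loss beside the cluster stopped 3.51 Mb before Pdgfra and did not reach it in either line. On the far side, a segment of 117 bins at -0.35 followed in 14837T alone, beginning 11.8 Mb after Kit.

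Fgfr1, a receptor of fibroblast growth factors, had the largest difference in log2 between the lines of the 10 genes. It lies on chromosome 8 from 25518759 to 25575718, between Tacc1 and Letm2. The log2 was -0.52 in 15376T, called at 1 copy, and 0.022 in 14837T, called at 2 copies. The difference of -0.54 was larger in size than the SD of either line, and 96.2% of autosomal genes differed by less. In 15376T the loss was a segment of 4.26 Mb with 725 bins and 65 genes, from Defb11 to Rnf170. It was bounded by segments at 2 copies, at -0.016 on the left (27 bins) and -0.040 on the right (775 bins). Fgfr1 lay 0.57 Mb from the right border. Nrg1, a ligand of Erbb3, and Dusp4, a phosphatase of MAPK, lay beyond that border at 2 copies. In 14837T, Fgfr1, Nrg1 and Dusp4 shared a single segment of 16.2 Mb.

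The own depth of 15376T over Fgfr1 was 28.0 in 19 bins. The 42 other genes of the segment with at least 5 bins had a median depth of 41.1, and 7.14% of them lay below Fgfr1. The mean depth of the whole segment was 37.6, or -0.29 on the log2 scale against the depth of 2-copy segments, a smaller loss than the log2 ratio gives. By the segments' own depths, the difference between the lines was -0.38, and that of Igf1r, 0.42, was then larger in size. In 14837T the depth of Fgfr1 itself is not known, since the gene tables list only genes with an absolute log2 of at least 0.40. Whether Fgfr1 has a low depth in any DNA was therefore not tested. The smallest segment held 12 bins in 15376T, fewer than the 19 bins of Fgfr1, and the table did not cut Fgfr1 out as a segment of its own.

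Axl, Igf1r and Fgfr2 lie on chromosome 7, which was called lost over 100% of its covered length in 15376T and 99.5% in 14837T. Axl, the receptor of GAS6, lies near the start from 25756500 to 25788924. Igf1r, the receptor of insulin-like growth factors, lies from 67952257 to 68233668, and Fgfr2, a receptor of fibroblast growth factors, from 130162451 to 130266808. In 15376T the 3 genes shared a single segment of 122 Mb with 13453 bins and a log2 of -0.53. They were lost together with Akt2, Gab2, Hras, Mapk3 and Igf2, so the 3 calls are 1 observation. In 14837T the chromosome was cut into 21 segments and the values differed. The log2 was -0.31 for Axl (1970 bins), -0.59 for Igf1r (335 bins) and -0.48 for Fgfr2 (1208 bins). The steps of 0.17 from Fgfr2 to Axl and 0.10 from Igf1r to Fgfr2 were larger than the SD of 0.095. Axl was nearest to the threshold, and at -0.59 only 0.516% of autosomal genes lay below Igf1r and its segment.

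**Figure D2:**
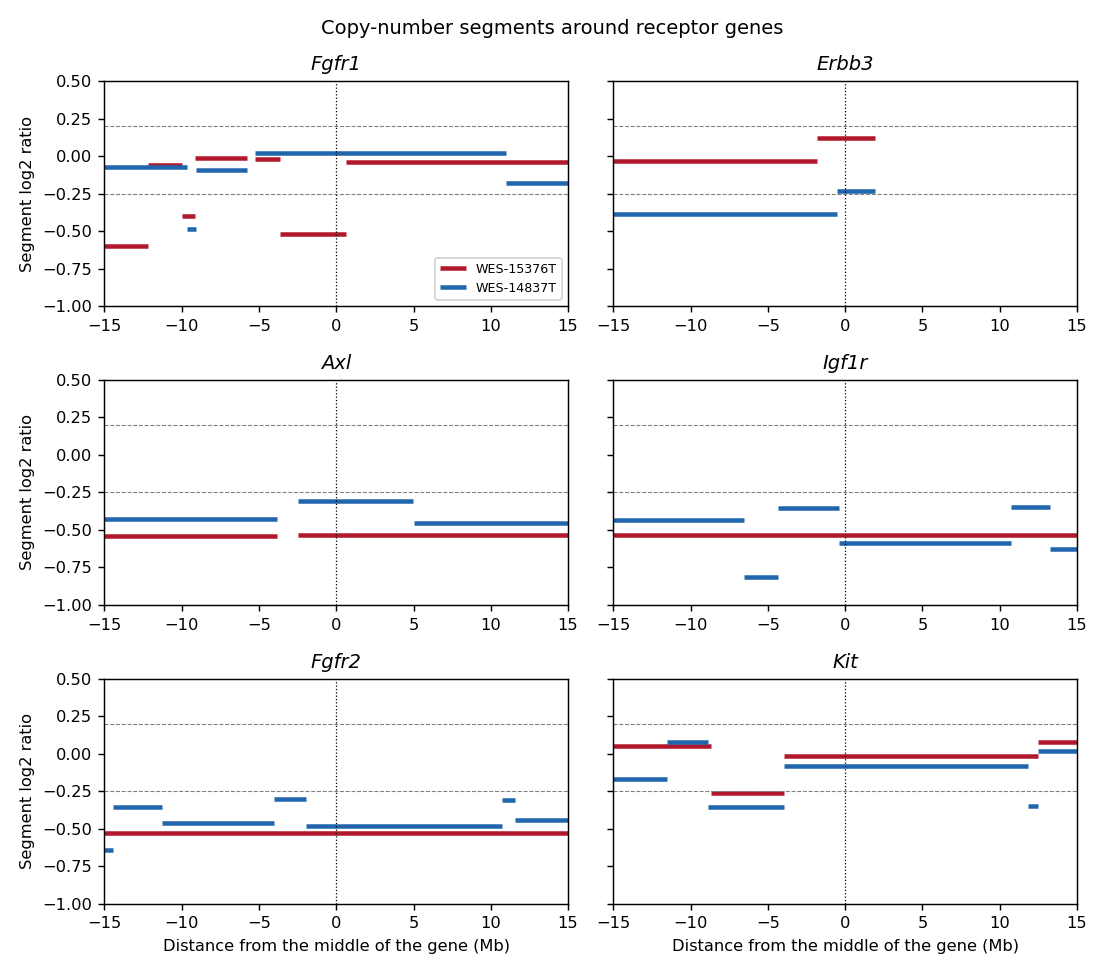
Log2 ratio of segments (vertical axis) within 15 Mb of the middle of 6 receptor genes (horizontal axis, Mb) in 15376T (red) and 14837T (blue), with the call thresholds as dashed lines. The loss around Fgfr1 spans 4.26 Mb in 15376T alone, the genes of chromosome 7 lie within called losses in both lines, and Kit lies beside a lost segment in each line.

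The order of Axl, Fgfr2 and Igf1r in 14837T went with the density of bins. Their segments held 263, 95.3 and 30.2 bins per Mb. Over the 21 segments of chromosome 7 in 14837T, log2 rose with bins per Mb, with a Spearman rho of 0.75 across segments that share the library and the reference. Over autosomal segments called at 2 copies, rho was 0.23 in 14837T (96 segments) and 0.45 in 15376T (103 segments). Over those called at 1 copy, as the 3 genes were, it was 0.24 in 14837T (68 segments) and of the opposite sign, -0.27, in 15376T (40 segments). The segment of Fgfr1 in 15376T held 170 bins per Mb, and its neighbors held 17.0 and 41.0. The part of bin density in the values of the 3 genes of chromosome 7 or of Fgfr1 was not tested.

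**Figure D3:**
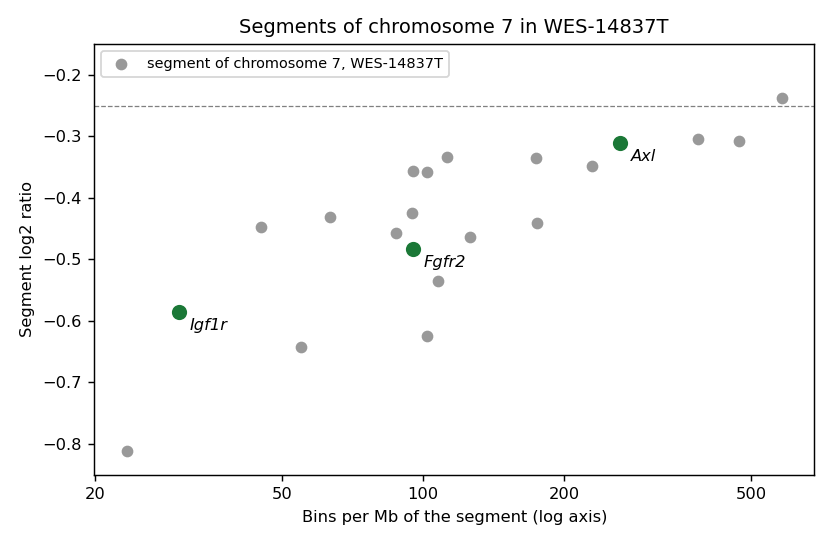
Log2 ratio (vertical axis) against bins per Mb (horizontal log axis) for the 21 segments of chromosome 7 in 14837T, with the segments of Axl, Fgfr2 and Igf1r in green and the loss threshold dashed. Segments with more bins per Mb lie higher, from -0.81 at 23.4 bins per Mb to -0.24 at 580 bins per Mb.

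The gene tables also give own depths for these genes of chromosome 7, but only because their segments were already past an absolute log2 of 0.40, so low depths follow from the listing. Igf1r had a depth of 29.7 in 15376T and 32.1 in 14837T over the same 23 bins. Relative to segments called at 2 copies these were -0.63 and -0.57 on the log2 scale, a difference of -0.063. The mean depth of the segment of Igf1r in 14837T was lower, at 24.2, or -0.97 on the same scale. Fgfr2 had a depth of 27.5 in 15376T and 32.4 in 14837T over 22 bins, which were -0.74 and -0.55, a difference of -0.19. Axl had a depth of 29.5 over 19 bins in 15376T, or -0.64, and is not listed in 14837T. The own depths can therefore be compared between the lines and do not bear on the calls. The differences between the lines lay within the range of other genes listed in both lines. Those genes, like Igf1r and Fgfr2, had to pass an absolute log2 of 0.40 in each line. Genes past it in 1 line alone are left out, so the range cannot show how unusual these differences are. The 1985 autosomal genes that both gene tables list at 5 bins or more had a median difference of -0.13 (SD 0.18), the 78 such genes in the Fgfr2 segment of 14837T a median of -0.11 (SD 0.26), and the 14 in the Igf1r segment a median of -0.074 (SD 0.13).

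The lost receptors had coverage at 0.692 of the reference for the genes of chromosome 7 and 0.699 for Fgfr1 in 15376T, and at 0.807, 0.715 and 0.666 for Axl, Fgfr2 and Igf1r in 14837T. How many copies remain, and in how many cells, cannot be told apart in these tables. In 15376T the 10 genes fell into a low group from -0.53 to -0.52 and a group at 2 copies from -0.018 to 0.12, with a gap of 0.50 between Fgfr1 and Pdgfra. No step within either group exceeded the SD of 0.090, but genes that share a segment have a step of 0 by construction. The 10 genes gave the values of only 6 segments there. In 14837T no such gap was found, since Axl at -0.31 and Erbb3 at -0.23, on opposite sides of the threshold, differed by 0.079, less than the SD.

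The 48 other receptor tyrosine kinase genes show where the 10 stand within the family. Of the 48, 20 were lost and 1 gained in 15376T, and 17 were lost and 8 gained in 14837T. In 15376T these are 41.7% lost and 2.08% gained, beside 30.1% and 9.09% of all autosomal genes. In 14837T they are 35.4% and 16.7%, beside 28.8% and 21.4%. The median log2 was -0.036 and -0.065. The call differed between the lines for 20 of the 48 (41.7%), beside 1 of the 10 and 29.3% of all autosomal genes. The 48 genes lay in 26 and 29 segments, so these counts rest on fewer observations than genes. The only receptor gained in 15376T was Styk1, a kinase with a short outer part, with a log2 of 0.29 there and -0.17 in 14837T. The 8 gained in 14837T included Insrr, Flt1, Flt3, Lmtk2, Ptk7, Ddr1 and Alk. Of the 58 receptors, 0 were gained in both lines, beside 6.87% of all autosomal genes. None was gained in 1 line and lost in the other, while 324 of the 20947 autosomal genes were. The genes of these short counts were named after their values were seen.

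The relatives of the 10 receptors had the same call in some families and not in others. The 4 Fgfr genes split evenly in each line, with Fgfr1 and Fgfr2 lost in 15376T and Fgfr2 and Fgfr4 lost in 14837T. Fgfr3 was at 2 copies in both, with a log2 of 0.058 in 15376T and -0.030 in 14837T. Fgfr4 had a log2 of -0.036 in 15376T and -0.47 in 14837T. Of the insulin receptor family, Igf1r was lost in both lines, Insr was lost in 15376T alone (log2 -0.60, and -0.072 in 14837T), and Insrr was gained in 14837T alone (log2 0.62, and 0.097 in 15376T). The relatives of Axl, Tyro3 and Mertk, were at 2 copies in each line. Pdgfrb and Csf1r, relatives of Pdgfra and Kit, shared a segment that was lost in both lines, with a log2 of -0.56 in 15376T and -0.44 in 14837T. Mst1r, the relative of Met and receptor of macrophage-stimulating protein, was lost in 15376T (log2 -0.46) and not in 14837T (log2 0.10). Erbb4 was at 2 copies in 15376T (log2 -0.089) and lost in 14837T (log2 -0.32), the only one of the 4 Erbb genes with a loss.

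The Eph receptors, which bind ephrins on neighboring cells, are the largest family, and 9 of 14 were lost in 15376T and 7 of 14 in 14837T, beside 30.1% and 28.8% of all autosomal genes. The 14 genes lay in only 8 segments in 15376T and 9 in 14837T, and Epha2, Epha7, Epha8, Epha10 and Ephb2 shared a single lost segment of chromosome 4 in 15376T. Epha7 showed the largest difference of the 48, with a log2 of -0.59 in 15376T and 0.19 in 14837T, just under the threshold for a gain. Ephb1 and Ryk shared a segment with a log2 of -0.62 in 15376T and -0.058 in 14837T. Epha3 and Epha6 on chromosome 16 had the lowest means over the lines, with -0.65 in 15376T and -0.49 in 14837T. Ntrk3, a neurotrophin receptor, followed with the values of Igf1r, whose segment it shares in each line. Among the highest means were those of Insrr on chromosome 3 and of Ddr1, a collagen receptor with a log2 of 0.074 in 15376T and 0.43 in 14837T. By chromosome, all 9 receptors on chromosome 4 and all 5 on chromosome 7 were lost in 15376T, each set within 1 segment. On chromosome 5, 0 of 9 were lost. In 15376T, 100% of the covered length of chromosome 7 was lost and 5.77% of chromosome 5, so the counts there restate the chromosome. All receptors on chromosomes 8 (2 genes), 9 (3), 16 (3) and 18 (2) were also lost in 15376T, beside 30.1% of all autosomal genes.

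**Figure D4:**
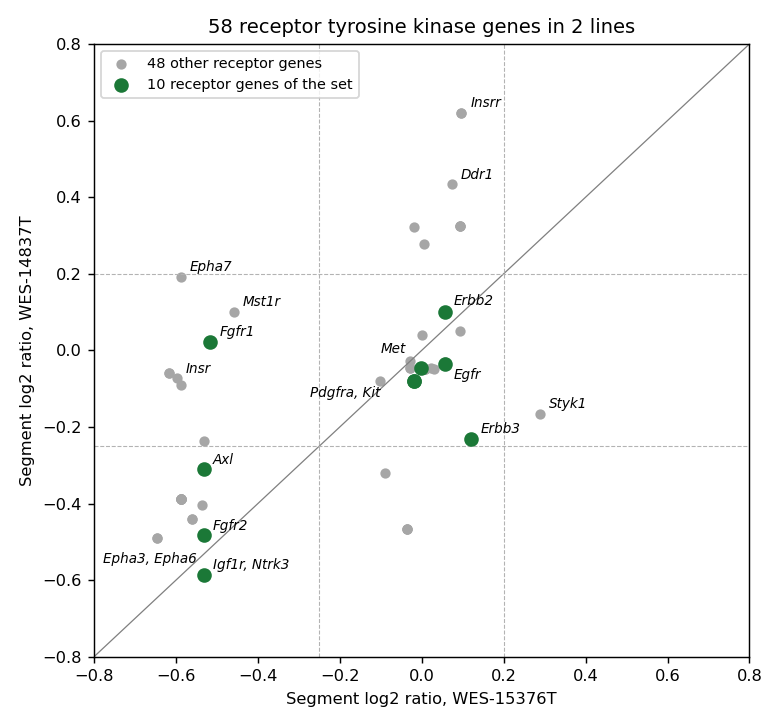
Segment log2 ratio in 15376T (horizontal axis) and 14837T (vertical axis) of 58 receptor tyrosine kinase genes, the 10 of the set in green and 48 others in grey, with the call thresholds dashed and equality as a line. Fgfr1, Mst1r, Insr and Epha7 lie left of the loss threshold of 15376T and near or above 0 on the vertical axis. No receptor lies above both gain thresholds.

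Of 35 autosomal genes for ligands of these receptor families, 11 were lost and 3 gained in 15376T, and 14 were lost and 7 gained in 14837T. In 15376T these are 31.4% lost and 8.57% gained, beside 30.1% and 9.09% of all autosomal genes. In 14837T they are 40% and 20%, beside 28.8% and 21.4%. Those gained in both lines were Egf, with a log2 of 0.49 in 15376T and 0.50 in 14837T, and Pdgfb, with 0.49 and 0.31. Egfr, the receptor of Egf, was at 2 copies in each line, and Pdgfrb, a receptor of Pdgfb, was lost in both. For Igf1r, the ligand gene Igf2 was lost in both lines and Igf1 in 14837T alone (log2 -0.57, and -0.14 in 15376T). Of the ligands of Axl, Gas6 was at 2 copies in each line, and Pros1 was lost in both, with -0.65 and -0.49. Kitl, the ligand of Kit, was at 2 copies in 15376T (log2 -0.00033) and lost in 14837T (log2 -0.37). Hgf, the ligand of Met, was at 2 copies in each line, with 0.058 and -0.030. Among the other ligands, Fgf10 differed most between the lines, at -0.032 in 15376T and -0.62 in 14837T. Nrg4 was at -0.53 in 15376T and -0.029 in 14837T, and Nrg3 was lost in both, at -0.59 and -0.50.

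Of 34 autosomal genes that carry the signal onward, 11 were lost in each line, and 3 were gained in 15376T and 9 in 14837T. The share lost is 32.4% in each line, beside 30.1% and 28.8% of all autosomal genes. The shares gained are 8.82% and 26.5%, beside 9.09% and 21.4%. The 3 gained in both lines included Nras and Pik3ca, the catalytic subunit p110-alpha of PI3K. Pik3ca was called at 4 copies in 15376T (log2 0.74) and at 3 in 14837T (log2 0.43). Nras had a log2 of 0.51 and 0.60. Pik3cb, Irs2 and Map2k1 were lost in 15376T alone, with -0.61, -0.60 and -0.53 there against -0.058, -0.072 and -0.029. Shc1, an adaptor that binds activated receptors, was gained in 14837T alone, at 0.62 against 0.097. Jak1 was lost in both, at -0.59 and -0.39.

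Of 20 genes that dampen receptor signalling, 4 were lost and 1 gained in 15376T, and 6 were lost and 2 gained in 14837T. In 15376T these are 20% lost and 5% gained, beside 30.1% and 9.09% of all autosomal genes. In 14837T they are 30% and 10%, beside 28.8% and 21.4%. Spry1, an inhibitor of the Ras pathway, was gained in both lines (log2 0.43 in each). Cblb, a ubiquitin ligase that removes activated receptors, was lost in both, at -0.65 in 15376T and -0.49 in 14837T. The 3 with a different call included Dusp6 and Rasa1, named after their values were seen and lost in 14837T alone at -0.37 and -0.53. The 20 genes lay in 18 segments in each line.

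**Figure D5:**
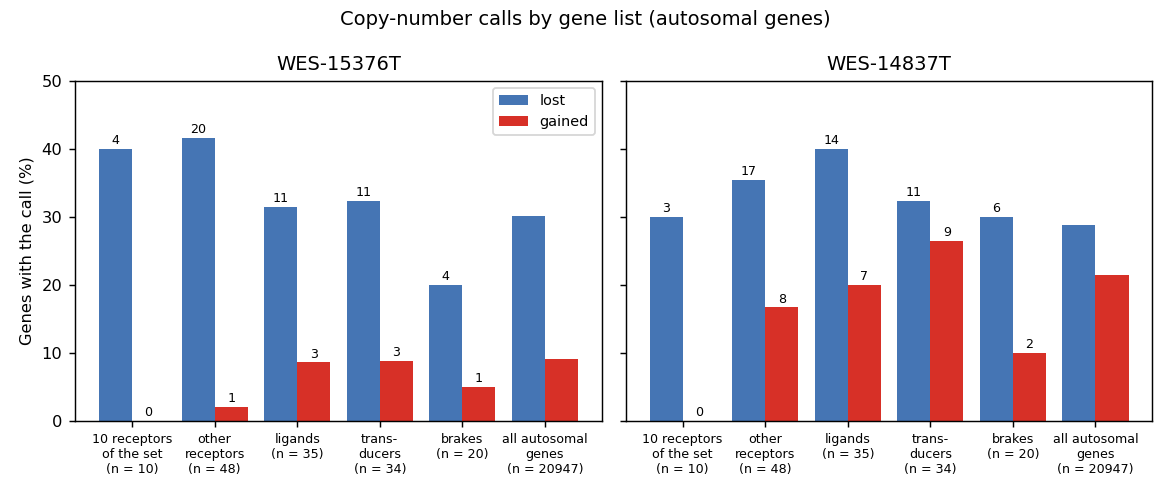
Share of autosomal genes called lost (blue bars) and gained (red bars), in percent from 0, in each gene list and over all 20947 autosomal genes, for 15376T (left) and 14837T (right), with the number of genes above each bar of a list. The 10 receptors have 4 and 3 losses and 0 gains, and all autosomal genes 30.1% and 28.8% losses.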

How the data were processed

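Genomic DNA of 15376T and 14837T was measured by WES as 1 library per line. For the capture, NimbleGen probes are given in the methods and an Agilent kit in the labels, both designed for human exons although the DNA is from mouse. The submitters' processing notes name the build mm10. The aligner, the copy-number program, the reference and the filters are not given in the sources used here, and the columns are those of CNVkit. The log2 values, the BAF (a fraction), the read depth (a coverage signal without normalization), the weights (a score, not used) and the integer copy numbers were deposited by the authors per segment, and for genes past an absolute log2 of 0.40 per gene.

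A gene was given the segment whose gene column names it. All 149 genes of the lists were named in 1 segment of each line, and 89 genes in 15376T and 128 in 14837T were named in several and left out of the background. Positions are from RefSeq on GRCm38.p6, with which all 149 genes matched by symbol. Own depth was divided by the bin-weighted mean depth of autosomal 2-copy segments, 46.0 in 15376T and 47.5 in 14837T. The calls followed a log2 of 0.2 and -0.25 with 0 exceptions on the autosomes. Python 3.11.15, numpy 2.4.6, pandas 2.3.3, scipy 1.17.1 and matplotlib 3.10.9 were used. The mapping of genes to segments and calls by the log2 thresholds were run on simulated segments. The simulated states lay far from the thresholds, so their recovery says nothing about values near them. The counts from the deposited integer copy numbers were not simulated. Depth limits each value, but the tables give no read counts, so no interval could be set.

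The members and the gene lists (other receptors, ligands, transducers and brakes) were chosen with earlier results of these data known. Besides the 10 receptors, the text names the 6 other receptors with the largest difference between the lines and the 3 highest and 3 lowest by mean log2. Of the other lists it names the 6 with the largest difference and the 4 highest and 4 lowest. Some genes set in this way are left out of the text. Relatives and ligands of the 10 receptors were named besides, after their values were seen. The alternatives tried were thresholds of 0.3 and 0.5 on absolute log2, log2 recentred on the autosomal median, and own depth in place of log2. A threshold of 0.2 was added after the data were seen.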

Additional observations from a re-analysis of the deposited data

How the results depend on the processing

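With calls at an absolute log2 of 0.5, 1 of the 10 receptors was lost in 14837T (3 as called), Igf1r. Of the other receptors, 0 were then gained in 15376T (also at 0.3), and in 14837T 1 was lost, 2 were gained and 45 were at 2 copies. Of the ligands, 0 were gained in 15376T, and in 14837T 2 were lost, 1 was gained and 32 were at 2 copies. Of the transducers, 0 were lost, 2 gained and 32 at 2 copies in 14837T. Of the brakes, 0 were gained in either line, and in 14837T 1 was lost and 19 were at 2 copies. A higher threshold lowers such counts by construction. The 4 receptors lost and 0 gained in 15376T were the counts at 0.3 and 0.5, with recentred log2 and with own segment depth. Recentring kept all 30 counts within 1.5 times, and no value of a receptor moved by more than the SD. Own segment depth moved 10 of 30 values by more than the SD, raising the difference for Igf1r from 0.055 to 0.42 and turning that for Met from 0.043 to -0.17, and that for Erbb2 from -0.044 to 0.011 within the SD. Own gene depth instead gave -0.063 for Igf1r, and none of these genes has a different call. The cause was not tested. No paired analysis was possible because a line was sequenced as 1 WES library and no result comes from a test. The 19 to 23 bins of a listed receptor limit what its own depth can show.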

Other observations

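Of the 149 genes in the lists, 2 lie on chromosome X and stayed out of the counts. Araf, a kinase downstream of Ras, had 2 copies in both lines (log2 -0.17 in 15376T, -0.069 in 14837T). Fgf16, a fibroblast growth factor, was called at 1 copy in 15376T (log2 -0.56) and at 2 copies in 14837T (log2 -0.088).

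Across all autosomal genes, 324 were gained in 1 line and lost in the other, and 0 of the 147 autosomal genes of the lists were among them.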
